A study of Sus scrofa with 75 samples.

Results

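The miRNAs described here are the mature products of the miR-126, miR-143, miR-145, miR-199a and miR-199b hairpins, which are best known from endothelium, smooth muscle, connective tissue and platelets, measured in peripheral blood mononuclear cells (PBMCs) of young pigs. They were taken by name, with the entry of the largest total for each mature name, which gave 10 of the 457 mature miRNAs in the table. Both arms of each hairpin are listed. In every library, miR-199a-3p and miR-199b-3p have equal counts, so the 10 names hold 9 different measurements. The filter on low counts, 17 or more libraries with a read and a mean over 2 reads, left 209 miRNAs to test, and 5 of them are members, or 4 different measurements: miR-143-3p, miR-126-5p, miR-126-3p and miR-199a-3p.

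Small RNA was sequenced from 13 synthetic large white pigs, each bled at day 11, day 20 and day 56 of life, which gives 39 libraries. The 8 control pigs were reared in conventional farrowing crates, and the 5 topsoil pigs were given fresh topsoil every day from day 4 to day 20. All pigs were weaned at day 20 and moved to a nursery without soil, so age, weaning and the move cannot be told apart between day 20 and day 56. The group and day of a library were read from its column name. The tags for treatment and age on the samples matched these names in 19 and 14 of the 39 libraries and were not used.

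miR-126 is made from an intron of EGFL7, a gene of endothelial cells, and is also abundant in platelets and megakaryocytes. miR-143 and miR-145 come from one transcript that is known for keeping smooth muscle cells contractile. The miR-199 hairpins lie on the opposite strand of the dynamin genes and are typical of mesenchymal cells, although miR-199a-3p is also found in platelets. None of these miRNAs is a classical product of lymphocytes or monocytes, the main cells of a PBMC preparation.

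The sequences were read from Sscrofa11.1 at the RefSeq annotation of each hairpin, and bases 2 to 8, the seed that pairs with a target, are in capitals. They show which arms are different molecules and which bases the miR-199a and miR-199b entries share.
miR-126-5p: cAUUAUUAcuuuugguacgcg
miR-126-3p: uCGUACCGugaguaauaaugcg
miR-143-3p: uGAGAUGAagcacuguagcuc
miR-145-5p: gUCCAGUUuucccaggaaucccuu
miR-199a-5p: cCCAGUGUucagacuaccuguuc
miR-199b-5p: cCCAGUGUuuagacuaucuguu
miR-199a-3p: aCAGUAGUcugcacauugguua
miR-199b-3p: uACAGUAGucugcacauugguu
The 10 members have 9 different seeds, and the seed they share, CCAGUGU, is that of miR-199a-5p and miR-199b-5p. As annotated, miR-199b-3p shares a run of 21 bases with miR-199a-3p, acaguagucugcacauugguu, which starts at base 1 of miR-199a-3p and at base 2 of miR-199b-3p. A read of this run fits both names, and the identical counts are those of a single measurement. miR-199a-5p and miR-199b-5p differ at C10U and C17U, counted from the 5′ end of miR-199a-5p, and by 1 base in length, and their counts differ.

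On Sscrofa11.1, MIR126 lies on an unplaced scaffold from 1108695 to 1108767 within EGFL7, on the strand of that gene and outside its annotated exons. MIR143, on chromosome 2 from 150578738 to 150578817, and MIR145, from 150580126 to 150580211, are 1308 bases apart. Both lie within the annotated span of IL17B, on the opposite strand and outside its exons. MIR199A-1 on chromosome 9 (114533783 to 114533858), MIR199A-2 on chromosome 2 (69558051 to 69558130) and MIR199B on chromosome 1 (268691520 to 268691593) lie opposite in strand to DNM3, DNM2 and DNM1, each between annotated exons. Both miR-199a hairpins give the same mature sequences, so reads cannot be assigned to one of them.

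Libraries held between 2570910 and 14311898 counts over every entry. A single erythroid miRNA, miR-486, took between 11.8% and 95.5% of the counts over one entry per name, and all other miRNAs together had between 389906 and 6343113. The latter is the depth behind the members. A count of 0 allows up to 3 reads, or between 0.473 and 7.69 ppm (1 ppm is 0.0001%) of these other miRNAs, depending on the library. These limits cover counting error alone, since the reads carry no molecular identifiers. The day 56 library of control pig 7 had the lowest total.

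miR-143-3p was the most abundant member, with 22708 reads in all and between 99 and 1728 in every one of the 39 libraries. It ranked 71st by total of the 209 tested miRNAs. miR-126-5p followed with 3040 reads in 32 libraries and rank 122. miR-126-3p had 301 reads in 25 libraries, and miR-199a-3p had 262 reads in 22. Mature miRNAs of this set are 21 to 24 bases long, so these are read counts without scaling by length. Within a library, miR-143-3p exceeded miR-126-5p in 38 of 39 libraries. The exception was control pig 8 at day 56, with 137 reads of miR-126-5p for each 100 of miR-143-3p. miR-126-3p and miR-199a-3p had no fixed order, with miR-126-3p higher in 16 libraries, lower in 13 and equal in 10.

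The partners of miR-143-3p were at or near 0. miR-145-5p, which comes from the transcript of miR-143, had 9 reads, all in control pig 1 at day 20. miR-145-3p had 10 reads in 4 libraries, 4 of them in that same library. The opposite arm, miR-143-5p, had 0 reads in 39 libraries, which allows up to 0.0332 ppm of the counts of all other miRNAs summed over the libraries. miR-199b-5p had 35 reads in 7 libraries, 18 of them in control pig 2 at day 56, and miR-199a-5p had 14 reads in 3 libraries, 10 of them in control pig 7 at day 20. miR-214, whose hairpin lies 5681 bases from MIR199A-1, had 0 reads of either arm.

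The arms of miR-126 were unequal. The 5p arm made up most reads, and miR-126-3p, the arm that usually goes by the name miR-126, held 9.01% of the reads of both arms. miR-126-5p was the higher arm in 32 libraries and miR-126-3p in 1, topsoil pig 1 at day 11, where miR-126-3p had 18 reads and miR-126-5p had 0. Both arms were at 0 in 6 libraries. For miR-143 the 3p arm held 100% of the reads. The 262 reads of the miR-199 3p sequence cannot be divided between the miR-199a and miR-199b hairpins, whose 5p arms had 14 and 35 reads.

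**Figure D1:**
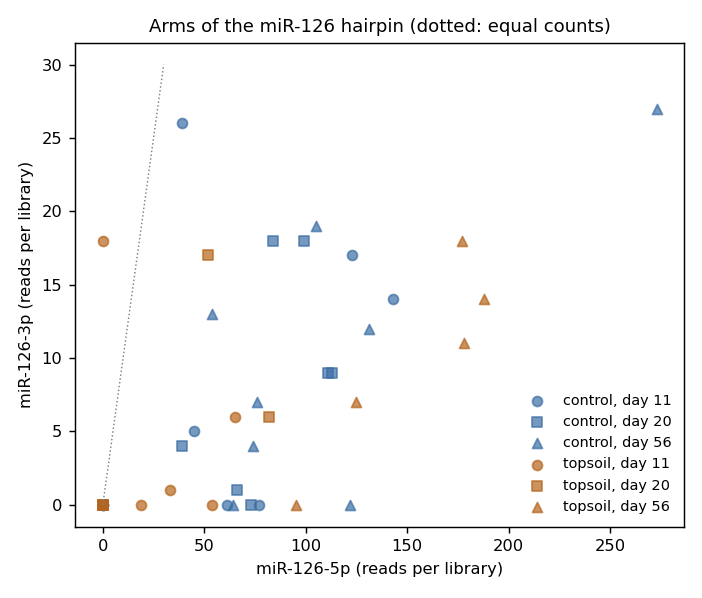
Reads per library of miR-126-5p (horizontal axis) and miR-126-3p (vertical axis) in the 39 libraries, by treatment (colour) and day (symbol), with a dotted line at equal counts. All but 1 of the libraries with a read lie to the right of the line, and 7 libraries lie at 0 reads of miR-126-5p.

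miR-126-5p was either absent or present with at least 19 reads, and no library held between 1 and 18. The 7 libraries at 0 were 2 control and 1 topsoil library at day 11 and 1 control and 3 topsoil libraries at day 20. At day 56 every library had miR-126-5p. The 7 libraries had between 389906 and 1762319 reads of miRNAs other than miR-486, and the mean share of miR-126-5p over all libraries would give them between 13.1 and 59.2 reads. All 7 held over 100 reads of miR-143-3p. Depth was lower in the libraries at 0 (median 674615) than in those with a read (median 2499500), and its part in the absences was not tested.

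Levels below are counts per 1000000 (CPM) after scaling by the upper quartile, the 75th percentile of each library's counts over the tested miRNAs, which keeps the large and variable share of miR-486 from setting the scale. Since the scale does not follow the total, the CPM of a library do not sum to a fixed number.

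miR-143-3p fell with age. Control pigs had between 34.8 and 203 CPM at day 11 (median 55.4), between 16.1 and 105 at day 20 (median 52.0), and between 7.49 and 178 at day 56 (median 30.2). In the 5 topsoil pigs, in the order of their replicate numbers, it was 201, 74.0, 286, 45.6 and 31.3 CPM at day 11. At day 20 these pigs had 253, 7.43, 209, 38.7 and 118 CPM, and at day 56 they had 51.8, 7.21, 25.2, 17.2 and 16.9. The ages overlap in both treatments, but within a pig the level at day 56 was below that at day 11 in 6 of 8 control and 5 of 5 topsoil pigs. The decrease in these 11 pigs was between 1.72-fold and 11.4-fold. Control pigs 4 and 6 went the other way, 1.34-fold and 1.22-fold higher.

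Over all pigs, miR-143-3p fell from 104.5 ± 82.5 CPM (SD, n = 13) at day 11 to 81.6 ± 76.2 at day 20 and 39.5 ± 44.5 at day 56. The log2 fold change at day 56 against day 11 was -1.44 (SE 0.36, adjusted p = 0.00612, edgeR's quasi-likelihood test with pig as a block and the RNA quality index, RQI, as a covariate, Benjamini-Hochberg adjustment). It was the only one of the 4 measurements called at a false discovery rate of 0.10, while 26.8% of all 209 miRNAs were called in this comparison, 18.2% higher and 8.61% lower. The median change of all tested miRNAs was 0.40, and 4.31% of them had a lower change than miR-143-3p. In a bulk preparation, fewer cells of a type and less of the miRNA per cell cannot be told apart.

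The direction depends on the scaling. With total counts as the scale, miR-143-3p changed by 0.58 (adjusted p = 0.251, edgeR), but the median of all miRNAs was then 2.27. Relative to the median of all miRNAs, miR-143-3p stood at -1.84 by the upper quartile and at -1.69 by total counts. By construction a change of scale moves all miRNAs by nearly the same amount, so this likeness is no check of the fall. With the reads of all miRNAs other than miR-486 as the library size, its change was -1.75 (adjusted p = 0.00049, edgeR) and the median of all was 0.07. Leaving out 1 pig at a time gave changes between -1.72 and -1.10.

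**Figure D2:**
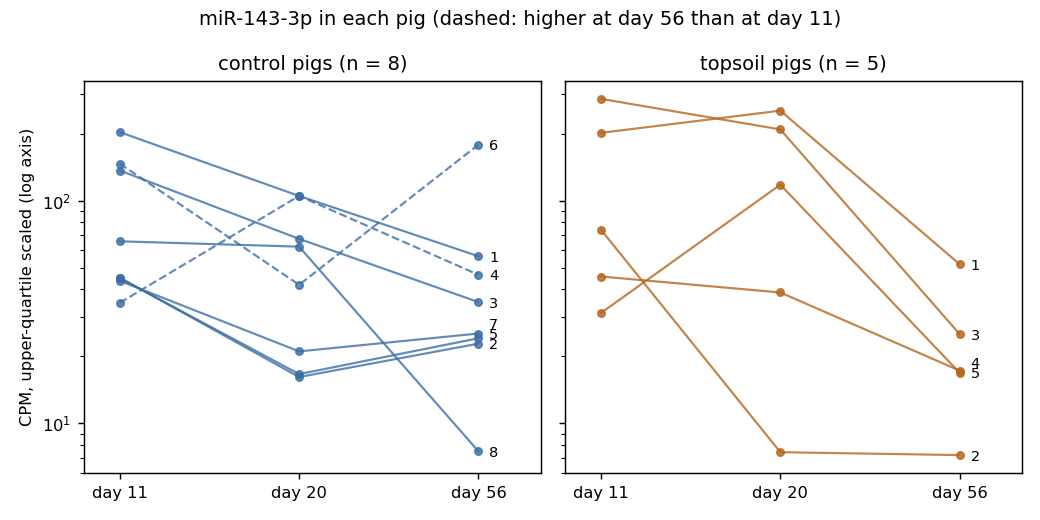
Level of miR-143-3p in each pig at day 11, day 20 and day 56, in CPM scaled by the upper quartile on a log axis, with control pigs on the left and topsoil pigs on the right and the replicate number beside each line. Dashed lines are the 2 control pigs (4 and 6) that were higher at day 56 than at day 11.

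The erythroid miRNAs moved in the same direction at the same age. All 3 fell between day 11 and day 56, with log2 fold changes of -3.21 for miR-486, -2.62 for miR-144 and -1.68 for miR-451, and all 3 were called, beside 8.61% of all 209 miRNAs called lower (adjusted p from 3.86e-05 to 0.00304, edgeR). The summed level of the 3 ranged from 280626 to 3741660 CPM at day 11, from 343140 to 4374550 at day 20 and from 33908 to 808943 at day 56. Their part in the fall of miR-143-3p was not tested.

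From day 20 to day 56, miR-143-3p changed by -0.87 (SE 0.38, adjusted p = 0.192, edgeR) and was lower in 9 of 13 pigs. None of the 4 measurements was called, while 16.3% of all miRNAs were, 9.09% higher and 7.18% lower. Without control pig 6, whose day 56 library held the highest miR-143-3p level of that age, the change was -1.29 (adjusted p = 0.0289, edgeR). DESeq2 gave -1.01 with an adjusted p of 0.0381. These settings called 32 and 54 of all 209 miRNAs. From day 11 to day 20 the change was -0.56 (SE 0.35, adjusted p = 0.663, edgeR), with 10 of 13 pigs lower, and 0% of the 209 miRNAs were called (20 at an unadjusted p under 0.05, and 0 called by DESeq2).

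miR-126-5p did not pass the test between any ages. In control pigs it was between 0 and 39.6 CPM at day 11 (median 7.36), between 0 and 21.6 at day 20 (median 6.62) and between 2.25 and 11.4 at day 56 (median 7.03). The topsoil pigs had 0, 6.999, 4.79, 3.46 and 5.07 CPM at day 11, then 0, 4.87, 8.90, 0 and 0 at day 20, and 8.65, 6.92, 12.8, 6.91 and 9.33 at day 56. The spread was narrowest at day 56, at 7.86 ± 3.06 CPM (SD, n = 13) against 8.11 ± 10.4 at day 11 and 5.61 ± 5.77 at day 20, a difference in spread that was not tested. From day 20 to day 56 all 5 topsoil pigs and 5 of 8 control pigs were higher. The fitted change was 1.37 (SE 0.80, adjusted p = 0.413, edgeR), and from day 11 to day 56 it was 0.71 (SE 0.77, adjusted p = 0.595, edgeR), opposite in sign to the difference of the means, which holds the 39.6 CPM of control pig 2 at day 11. With total counts as the scale, both changes passed, at 2.41 and 2.37, but so did 93 and 157 of all 209 miRNAs, whose medians were 1.396 and 2.27 under that scale.

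miR-126-3p and miR-199a-3p were measured from few reads, and no age comparison of either passed the test by upper quartile scaling. Over the 13 pigs, miR-126-3p averaged 1.45 ± 2.30 CPM (SD) at day 11, then 0.590 ± 0.843 at day 20 and finally 0.557 ± 0.448 at day 56. Its mean was highest at day 11, where control pigs 1 and 2 and topsoil pig 1 had 5.78, 5.48 and 4.97 CPM and the other 10 pigs at most 1.43. The fitted change at day 56 against day 11 was 0.76 (SE 0.98, adjusted p = 0.701, edgeR), opposite in sign to the difference of the means, and it was -0.15 without the RQI term. The pigs were split as well, with 6 higher, 5 lower and 2 equal.

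miR-199a-3p, with its twin entry miR-199b-3p, averaged 0.830 ± 1.54 CPM (SD) at day 11 over the 13 pigs, with 0.804 ± 1.02 at day 20 and with 0.396 ± 0.547 at day 56. At day 11 control pigs 3, 4 and 5 had 4.98, 1.92 and 2.96 CPM, and the other 5 control pigs had 0. At day 20, 7 of 8 control pigs had a read, and at day 56 3 did. Topsoil pig 2 had 0 reads at all 3 ages and so carries no information on age in the fit with pig as a block. The fitted change at day 56 against day 11 was -0.83 (SE 1.22, adjusted p = 0.701, edgeR), while 6 pigs were higher, 3 lower and 4 equal. It was 0.91 with total counts as the scale, and between -1.69 and -0.0046 when pigs were left out singly.

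**Figure D3:**
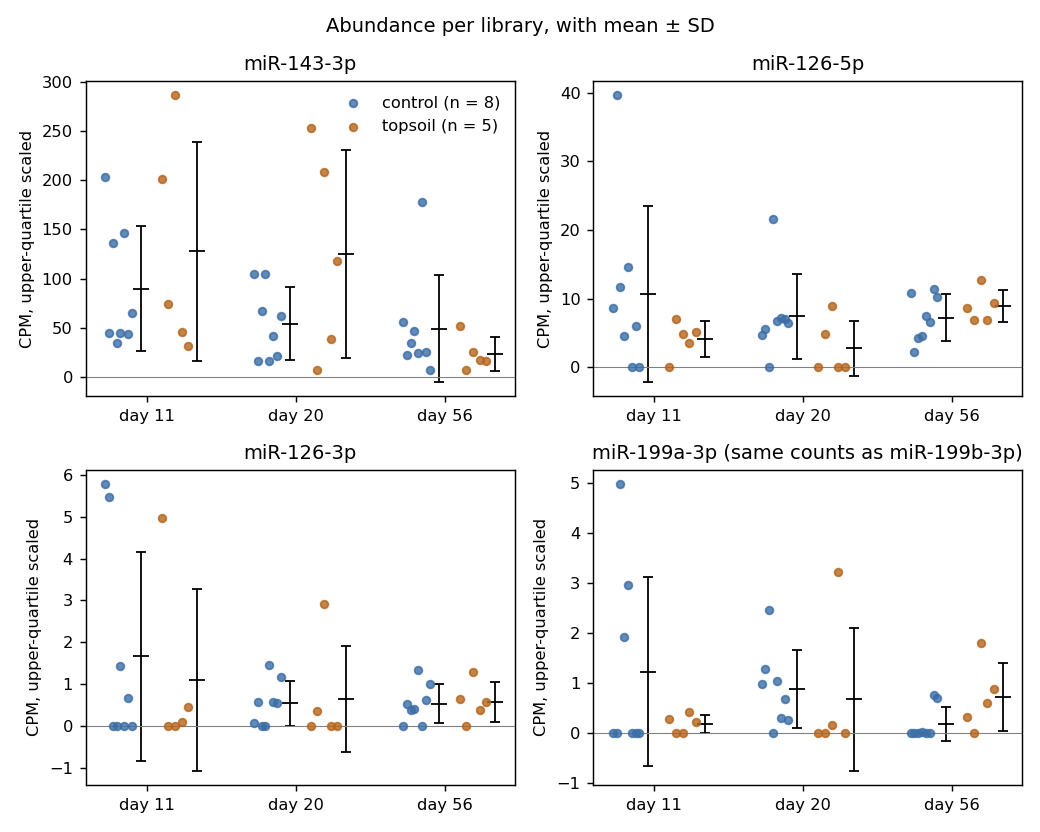
Level of the 4 different measurements in each library, in CPM scaled by the upper quartile, by day and treatment, with the mean and SD of each group beside its points. The day 56 values of miR-143-3p lie below 60 CPM in all pigs but 1 control pig with 178, and 3 of the 5 topsoil pigs have 0 CPM of miR-126-5p at day 20.

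The treatments were compared at each age, within 1 library per pig. At day 20, the last day of topsoil exposure, miR-126-5p had 7.39 ± 6.19 CPM (SD, n = 8) in control and 2.75 ± 4.03 (SD, n = 5) in topsoil pigs, with a fitted log2 fold change of -4.41 (SE 1.22). The unadjusted p was 0.0103 and the adjusted p was 0.280 (edgeR's quasi-likelihood test with RQI). The groups overlap, since topsoil pigs 2 and 3 had 4.87 and 8.90 CPM and control pig 3 had 0. Without the RQI term the difference was -1.38, and without topsoil pig 2 it was -6.30 with an adjusted p of 0.0933. DESeq2 gave -4.61 with an adjusted p of 0.0129. These 2 fits called 6 and 8 of all 209 miRNAs. At this age 0.957% of the 209 miRNAs were called and none of the members was.

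The other members did not pass at day 20 either. miR-126-3p had a fitted difference of -3.24 (SE 1.66, adjusted p = 0.335, edgeR), which turned to 0.21 without the RQI term. The group means ran opposite to the fit, at 0.653 CPM in topsoil and 0.550 CPM in control pigs. This miRNA had 0 reads in 3 of 5 topsoil and 2 of 8 control libraries. miR-143-3p was higher in topsoil pigs by 1.16 (SE 0.67, adjusted p = 0.436, edgeR), but lower by 0.33 with total counts as the scale. The difference of miR-199a-3p was -0.23 (SE 1.32) and turned to 0.18 with TMM normalization.

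At day 11 and day 56, 0% of the 209 miRNAs were called between treatments, with 7 and 5 at an unadjusted p under 0.05 in edgeR, and DESeq2 called 1 and 0. The differences of the members at day 11 were 0.46 for miR-143-3p, -0.85 for miR-126-5p, -1.03 for miR-126-3p and -2.62 for miR-199a-3p. When pigs were left out singly, that of miR-143-3p was -0.20 without topsoil pig 1 and -0.061 without topsoil pig 3, that of miR-126-3p was 0.48 without control pig 1, and that of miR-126-5p stayed between -1.79 and -0.27. That of miR-199a-3p ranged from -3.46 to -1.93. At day 56 the differences of the members were -0.88, 0.31, 0.02 and 1.84 in the same order. The value of miR-143-3p at day 56 was -0.029 without control pig 6, and that of miR-199a-3p was between 1.36 and 3.21 when pigs were left out singly. For the treatment by age interaction, the question whether topsoil changed the course over time, 0% were called (22 at an unadjusted p under 0.05, and 0 called by DESeq2). For the extra change in topsoil pigs at day 20 and at day 56, each against day 11 and taken alone, edgeR called 0 and 0 of the 209 (18 and 9 at an unadjusted p under 0.05) and DESeq2 called 6 and 1, none of them a member. In the test of the interaction, the unadjusted p of the members was 0.0406 for miR-143-3p, 0.0925 for miR-126-5p, 0.182 for miR-199a-3p and 0.869 for miR-126-3p, with adjusted p-values of 0.462 or more (edgeR).

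**Figure D4:**
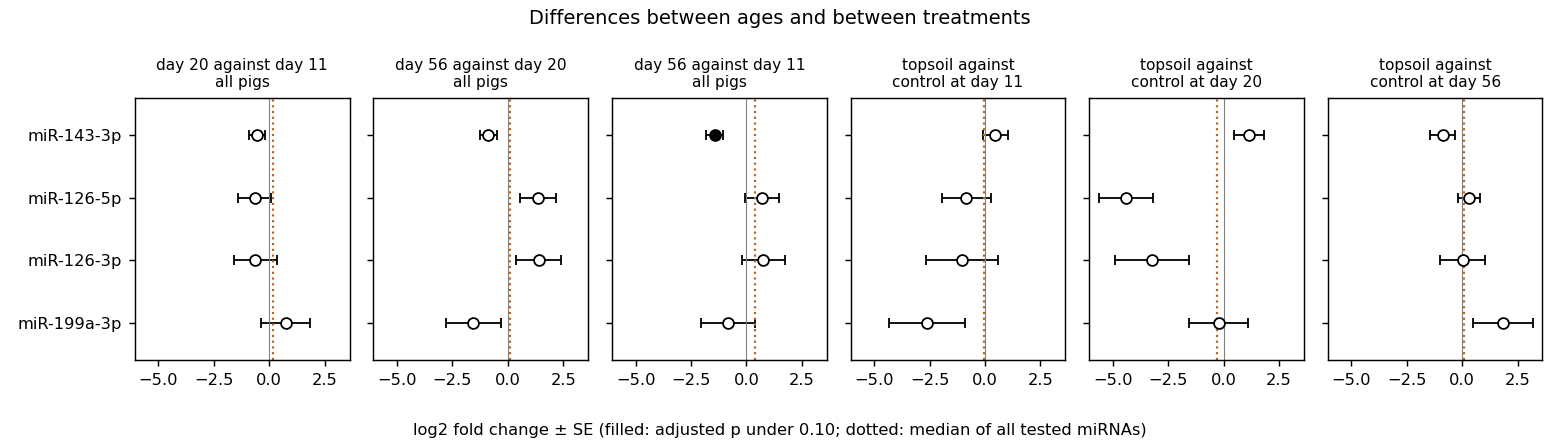
Log2 fold changes with their SE for the 4 different measurements in the 3 comparisons of ages and the 3 of treatments (edgeR, upper quartile scaling, RQI as a covariate). The only filled point, with an adjusted p under 0.10, is miR-143-3p at day 56 against day 11, and the dotted lines mark the median of all 209 tested miRNAs.

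The members differed in their spread between libraries. The biological coefficient of variation in the edgeR fit was 0.616 for miR-143-3p, near the median of 0.687 over all tested miRNAs. It was 1.21 for miR-126-5p, 1.48 for miR-126-3p and 1.69 for miR-199a-3p, which ranked 61st, 32nd and 9th from the highest of the 209. The SE of the change from day 11 to day 56 rose in the same order, from 0.36 through 0.77 and 0.98 to 1.22 on the log2 scale.

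A ratio inside a library does not depend on the scaling. None of the 8 planned ratios of members had at least 10 reads of both miRNAs at day 11 and day 56 in 8 pigs, so none was tested. The ratio of miR-126-5p to miR-143-3p, which 10 pigs allowed, was added after the counts were seen and is given without a test. For each 100 reads of miR-143-3p, the median library had 8.57 reads of miR-126-5p at day 11, then 10.4 at day 20 and 30.9 at day 56. The topsoil pigs had medians of 7.59, 0 and 50.7, and the control pigs of 10.7, 18.8 and 15.6. Between day 11 and day 56 the ratio was higher in 10 of 13 pigs, by 2.74 ± 3.38 on the log2 scale (SD, n = 13), or by 1.31 in the 10 pigs with at least 10 reads of both. For the log2 scale 0.5 was added to each count. This addition sets the value where miR-126-5p had 0 reads, as in 3 of 13 libraries at day 11. The pigs of those libraries are not among the 10.

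The next question was whether members vary together from pig to pig. Of the pairs set for it, 3 had both miRNAs among those tested, and they were compared over the 13 pigs at each age, in 9 tests. For miR-126-3p and miR-126-5p at day 20, Pearson's r was 0.64 (permutation p = 0.0252, adjusted p = 0.218) and Spearman's rho 0.60 (permutation p = 0.0335, adjusted p = 0.301), and r was 0.63 without the 2 pigs farthest from the median. The libraries at 0 stand apart from the others, and over the 8 libraries with reads of both arms r was 0.86. Over such libraries r was 0.79 at day 11 (n = 6) and 0.54 at day 56 (n = 10). These last values were computed after the zeros had been seen, so no p-value is given for them. Over all 13 pigs, r was 0.22 at day 11 (rho 0.40) and 0.12 at day 56 (rho 0.43).

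miR-126-3p and miR-199a-3p had r = 0.56 (permutation p = 0.0485, adjusted p = 0.218) and rho = 0.53 (permutation p = 0.0678, adjusted p = 0.304) at day 56, with r = 0.44 without the 2 farthest pigs, against -0.01 at day 20 and -0.15 at day 11. miR-143-3p and miR-199a-3p had r of -0.22, -0.30 and -0.35 at day 11, day 20 and day 56 (adjusted permutation p = 0.709 each). None of the 9 passed by either coefficient. With TMM normalization, 3 of the 9 passed by Spearman's rho and 0 by Pearson's r. The pair miR-126-5p and miR-143-3p, added after the counts were seen, had r of -0.32, -0.30 and -0.10 at these ages (adjusted permutation p of 0.472, 0.472 and 0.727).

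Among the 204 other tested miRNAs, those whose level was most like that of miR-143-3p over the 39 libraries were miR-30e-3p (Spearman's rho 0.71), miR-30a-3p (0.69) and miR-10b (0.65), against a median rho of -0.16 over all 204. Their rho on the share of reads other than miR-486 was 0.72, 0.70 and 0.69. For miR-126-3p they were miR-27b-5p (0.51), miR-628-5p (0.51) and miR-29b (0.43), with 0 reads in 9, 11 and 18 libraries, and rho with miR-126-5p was 0.43. For miR-126-5p they were miR-130b-3p (0.48), miR-1388 (0.48) and miR-27b-5p (0.42). The order depends on the measure: on the share of reads other than miR-486, rho between both miR-126 arms was 0.51, above the 0.42, 0.39 and 0.45 of these 3, and miR-126-3p had 0.48, 0.52 and 0.43 with the 3 miRNAs named for it. For miR-199a-3p they were miR-3613 (0.50), miR-148b-5p (0.48) and miR-505 (0.44), all with 0 reads in 6 to 15 libraries. The 39 libraries share pigs, ages and depths, so these values describe likeness and no test was made.

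Lists of miRNAs typical of other cells give the surroundings of these values. The platelet-abundant list (miR-223, miR-191, miR-24-3p, miR-21-5p, miR-221-3p and miR-222, all also made by leukocytes) was present in every library, at a summed 6396 to 35390 CPM. Of its 7 names, miR-197 matched none of the mature names in the counts, and miR-223 is also in the myeloid list. Of its 6 tested members, 4 rose and 0 fell at day 56 against day 11, beside 18.2% of all 209 miRNAs called higher and 8.61% called lower, with a list median of 0.73 beside 0.40 for all miRNAs. miR-21-5p changed by 1.28 (SE 0.20), and miR-191, the most abundant, by 0.01 (SE 0.26). Of the lymphocyte list, 2 of 4 were called higher, miR-181a by 1.07 (SE 0.18) and miR-150 by 0.86 (SE 0.20), against the same 18.2% of all miRNAs. Not called were miR-155-5p at 0.66 (SE 0.87) and miR-342 at -0.19 (SE 0.29). Of the myeloid and leukocyte list, 1 of 3 was called higher, miR-142-5p by 1.54 (SE 0.23), against the same share. Its miR-142-3p at 0.68 (SE 0.40) and miR-223 at 0.52 (SE 0.31) were not called.

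The mesenchymal and smooth muscle list had no call among its 4 tested members at any age or between treatments, beside 26.8% of all miRNAs called at day 56 against day 11, 16.3% at day 56 against day 20 and 0% to 0.957% in the other comparisons. At day 56 against day 11 its members changed by -0.30 (miR-125b), -1.09 (miR-100), -0.64 (miR-99a-5p) and 1.71 (miR-99a-3p), with adjusted p-values of 0.356 or more (edgeR). Its defining members miR-214 and miR-218 had 0 reads, and miR-152 had 59 reads in 9 libraries. The summed level of the list was 7.87 to 217 CPM at day 11, 47.0 to 185 at day 20 and 25.5 to 89.9 at day 56. Of the striated muscle list, miR-1, miR-133b, miR-206 and miR-208b had 0 reads, and the highest total was 20 reads for miR-133a-3p.

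**Figure D5:**
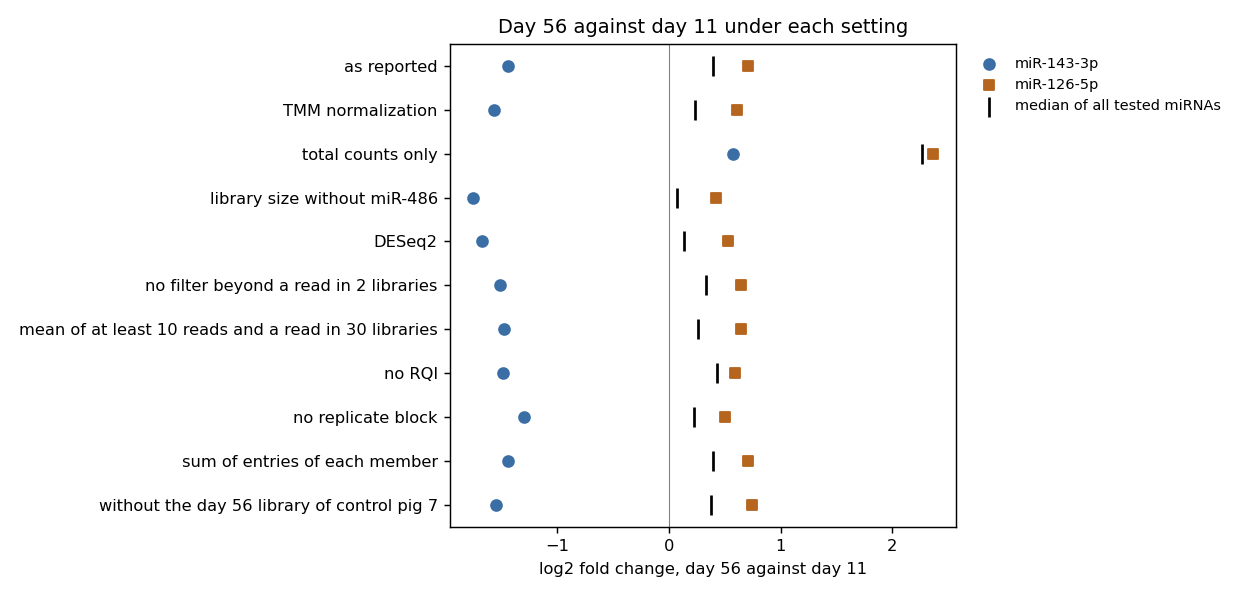
Log2 fold change at day 56 against day 11 of miR-143-3p (circles) and miR-126-5p (squares) and the median of all tested miRNAs (bars) under each way of processing. The value of miR-143-3p minus the median is between -1.92 and -1.52 in every row, and with total counts only all 3 values move up together. A change of scale moves all miRNAs by nearly the same amount, so a steady difference between scales is no separate check. The row for the sum of entries repeats the reported fit, since each member has 1 entry.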

How the data were processed

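The authors mapped small RNA reads and counted mature miRNAs with miRDeep2, and deposited the counts without normalization, with 1 entry for each mature name and precursor. For each name the entry with the largest total was kept. The members and lists were chosen with earlier results of these data known. The counts went into edgeR 4.0.16 in R 4.3.3 (quasi-likelihood test, upper quartile scaling). miRNAs with a read in at least 17 of 39 libraries and a mean above 2 reads were fitted together (209), and p-values were adjusted by Benjamini-Hochberg over all of them. Ages were compared with pig as a block and RQI as a covariate, since the same pig was bled at each age, and treatments at each age with RQI. SE are Wald standard errors. The pipeline was tested on simulated data. DESeq2 1.42.0, TMM, total counts, other filters, no RQI, no block and leaving out each pig were tried. Other miRNAs were named by the highest Spearman's rho, 3 per member with enough reads (none for miR-145-5p). Correlations used 100000 permutations, two-sided (SciPy 1.17.1). The mRNA table was not used here. Sex, litter size and parity were left out of the models.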

Additional observations from a re-analysis of the deposited data

Results flagged for a closer look

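The level of each of the 4 different measurements was searched for 1 library far from the others in the 6 groups of treatment and age, 24 groups in all. A library stood apart in 6 of them. The limit used flags about 1 in 20 groups of normally distributed values, or 1.2 of 24, but these CPM are skewed and many are 0, so nothing was read from the number of flags. In control pigs, these were 39.6 CPM of miR-126-5p in pig 2 at day 11 (next highest 14.6), 21.6 CPM of miR-126-5p in pig 4 at day 20 (7.13), and 178 CPM of miR-143-3p in pig 6 at day 56 (56.3). In topsoil pigs, they were 4.97 CPM of miR-126-3p in pig 1 at day 11 (0.468), 2.91 CPM of miR-126-3p in pig 3 at day 20 (0.357) and 3.22 CPM of miR-199a-3p in pig 4 at day 20 (0.171). The last 3 rest on 18, 17 and 14 reads.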

How the results depend on the processing

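The fall of miR-143-3p from day 11 to day 56 kept its direction and its call under every alternative tried except total counts, and with each pig left out. Without the replicate block (pig) its change was -1.29 (adjusted p = 0.0411, edgeR), and the block changed no call of a member. With total counts only, 2 members were called at day 56 against day 11, beside 157 of all 209 miRNAs, miR-126-5p at 2.37 and miR-126-3p at 2.86, while miR-143-3p reversed to 0.58 and miR-199a-3p to 0.91. At day 56 against day 20 the count of members called was 1 instead of 0 with total counts only (miR-126-5p; 93 of all 209 called), with the library size without miR-486 (32 of 209), with DESeq2 (54) and without RQI (39), the member being miR-143-3p in these 3, and 0 to 1 on leaving out single pigs (1 without control pig 6, beside 32 of 209). miR-143-3p reversed there to 0.76 by total counts. DESeq2 called 1 member between treatments at day 20, beside 8 of all 209, and leaving out single pigs gave 0 to 1 (miR-126-5p without topsoil pig 2, beside 6 of 209). The other counts of members called stayed at 0, or at 1 for day 56 against day 11, with each pig left out.

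Directions of uncalled members reversed as follows. By total counts, miR-126-3p at day 20 against day 11 was 0.15 and miR-143-3p between treatments at day 20 was -0.33. miR-126-3p at day 56 against day 11 was -0.15 without RQI and -0.0042 without the block, and between treatments at day 20 it was 0.21 without RQI. miR-199a-3p between treatments at day 20 was 0.18 by TMM, 0.064 with the library size without miR-486 and 0.14 by DESeq2. The difference of miR-126-3p at day 56, 0.02, was -0.0051 by TMM, -0.095 without miR-486, -0.058 by DESeq2 and -0.076 without a filter. With each pig left out, these differences ranged from -2.37 to 0.48 (miR-126-3p) and -0.20 to 0.75 (miR-143-3p) at day 11, from -5.01 to 0.21 (miR-199a-3p) at day 20 and from -0.23 to 0.38 (miR-126-3p) at day 56. In only the pigs with at least 10 reads of both, the ratio of miR-126-5p to miR-143-3p differed between treatments at day 20 by -0.15 instead of -3.71. That choice keeps 2 of 5 topsoil and 7 of 8 control pigs. It leaves out exactly the libraries at 0 reads of miR-126-5p, so the smaller value says nothing about them. The cause of these changes was not tested.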

Other observations

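The pattern of miR-126-5p, with several libraries at 0 and no low counts, was looked for in the other tested miRNAs. Of the 209, 90 were at 0 in at least 3 libraries, and 6 of these had no count between 1 and 9 in any library. They were miR-126-5p, miR-1306-5p, miR-1343, miR-30c-1-3p, miR-34c and miR-582-3p. These limits were chosen after the counts of miR-126-5p were seen.

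Identical counts under different names also occurred outside the miR-199 entries, in miR-490 and miR-490-3p, miR-129a-5p and miR-129b, miR-339, miR-339-5p and miR-4334-3p, and miR-9, miR-9-1 and miR-9-2. With miR-199a-3p and miR-199b-3p, 12 names held 5 different measurements.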
